A study of Mus musculus with 6 samples.

Results

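2610005L07Rik and 6820431F20Rik are 2 clone-named genes of mouse chromosome 8 that the RefSeq table of assembly GRCm38.p6 lists as transcribed pseudogenes. They were followed through every probe set (short array probes read together as a single value) whose only platform gene symbol is 1 of these 2 names. The rule gave 9 of the 45037 probe sets that are not controls, 8 for 2610005L07Rik and 1 for 6820431F20Rik, and 2 genes of the 18194 named by a probe set of their own. Both genes were chosen by their measured differences between knockout and wild-type testes, so these differences are given as a description and support nothing by themselves.

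The study took whole testes of 12-week-old mice, 3 wild type (WT) and 3 Alkbh1-/- (KO), and hybridised the RNA of each mouse to 1 Affymetrix mouse expression array. All 6 mice are labelled with a C57/BL6 background in the source field, while the genotype field spells it C53/BL6, and no other allele or treatment is named for either group. Alkbh1 encodes a dioxygenase of the AlkB family, several members of which remove methyl groups from nucleic acids. Which part of Alkbh1 was deleted, and whether the WT mice were littermates, is stated by none of the labels.

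A pseudogene is a copy of a gene, or of part of one, that has lost the ability to make the original protein. A transcribed pseudogene still gives rise to RNA. The testis is known for transcribing a wide range of such loci, as well as multicopy genes and noncoding RNA, above all in germ cells during and after meiosis. Copies that are nearly alike can bind the same short probes, so a signal filed under 1 name may hold RNA of several copies. The table used here does not name the parent gene of either pseudogene and gives no function for them.

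The 6 arrays were alike over the whole table, and the targeted gene was low in the arrays labelled KO. Pearson correlations over the 27022 probe sets tested, which are not independent replicates, ran from 0.989 to 0.996, and WT replicates 1 and 2 stood at opposite ends of the first principal component (−24.36 and 21.03, 40.8% of the variance). The Alkbh1 probe set 1434660_at read 8.43, 8.65 and 8.72 log2 in WT and 5.76, 5.30 and 5.20 in KO (difference −3.18 ± 0.15 SE, limma adjusted p = 0.000582). Its other probe set, 1438681_at, differed by −1.02 ± 0.12 (limma adjusted p = 0.0697). Markers of germ cells had a median level of 14.13 log2 over 12 genes. The lists for other cells of the organ, Sertoli, Leydig, peritubular myoid, macrophage and endothelial, had medians from 6.74 to 10.57. These medians cover tested genes only, for example 4 of 6 Leydig and 2 of 4 endothelial markers. Germ cell markers also included low values, such as Zbtb16 at 7.15. Levels of different probe sets depend on their probes, so the medians do not rank amounts of RNA. The number of arrays limits the precision, and the median SE of a difference between genotypes was 0.08 log2.

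All 9 probe sets of the 2 pseudogenes read lower in KO than in WT on average. The differences ran from −1.0 to −0.35 log2 with a median of −0.48, so that KO means were between 50% and 78.7% of WT means on the linear scale. Over all 27022 tested probe sets the median difference was 0.01. At 7 of the 9 probe sets the 3 KO values were all lower than the lowest WT value, and at the other 2 the groups overlapped; 3.84% of all tested probe sets had KO wholly below WT. The fit over all probe sets (limma, Benjamini-Hochberg adjusted p under 0.05) called 0.0074% of them lower in KO, with 1 of the 8 pseudogene probe sets in the fit among these, a count that was 0 whichever array was left out. The genes were chosen by this very contrast, so nothing is read from these counts. In whole testes, fewer cells of a type and less RNA per cell cannot be told apart.

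**Figure D1:**
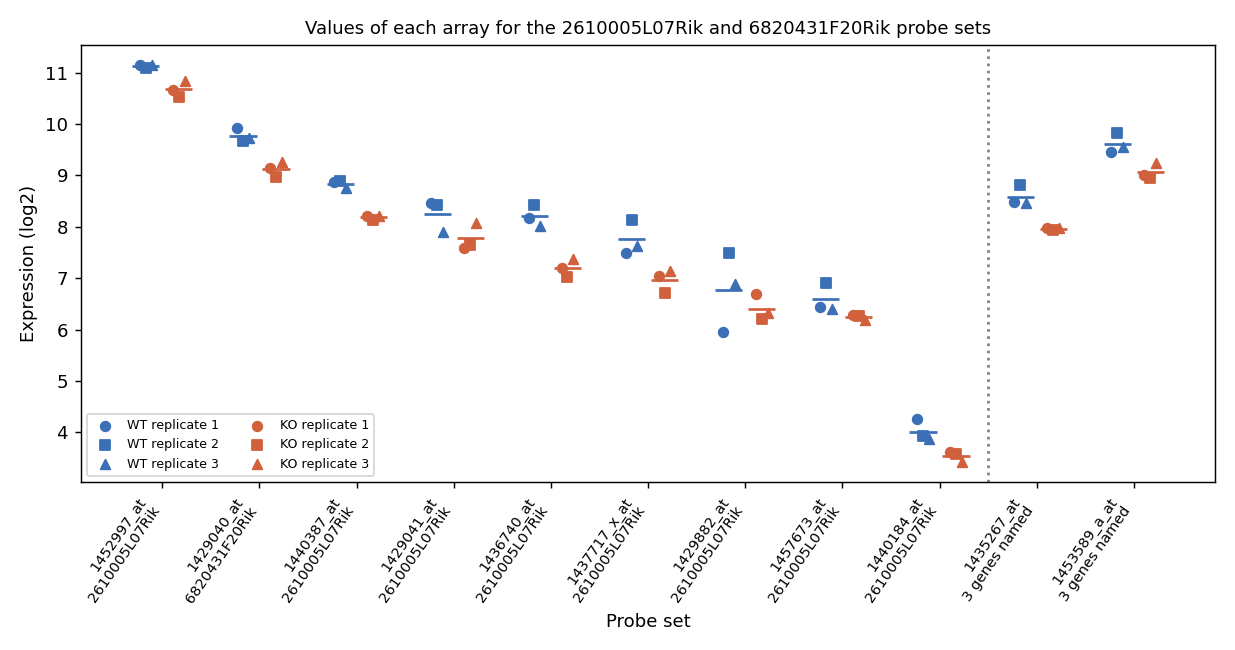
Expression in log2 of the 9 probe sets of 2610005L07Rik and 6820431F20Rik, ordered by mean level, and right of the dotted line of the 2 probe sets that name both genes together with another; points are single arrays and bars are group means. KO points lie wholly below WT points except at 1429041_at and 1429882_at.

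The only probe set of 6820431F20Rik, 1429040_at, read 9.92, 9.67 and 9.73 log2 in WT replicates 1, 2 and 3 and 9.15, 8.96 and 9.25 in KO replicates 1, 2 and 3. The groups did not overlap, and the gap between the lowest WT and the highest KO value was 0.42. The means were 9.77 ± 0.13 and 9.12 ± 0.15 (SD, n = 3 each), a difference of −0.65 ± 0.10 (SE), or 63.6% of the WT level.

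The first of the 8 probe sets of 2610005L07Rik, 1452997_at, stood at the 92.4th percentile of all probe sets by mean value. It read 11.16, 11.10 and 11.16 in WT and 10.65, 10.53 and 10.83 in KO. The WT values lay within 0.06 of each other, while the KO values spread more (SD 0.03 and 0.15), and the groups were apart by 0.26. Its difference was −0.46 ± 0.08 (SE).

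Probe set 1440387_at had the least spread within groups. Its values were 8.88, 8.89 and 8.75 in WT and 8.22, 8.12 and 8.21 in KO. The SDs were 0.08 and 0.05, the gap between the groups 0.53 and the difference −0.66 ± 0.07. It stayed between −0.70 and −0.63 when 1 array was left out, and was −0.57 with both WT replicates 1 and 2 left out.

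The widest separation was at 1436740_at. It read 8.17, 8.42 and 8.01 in WT and 7.20, 7.03 and 7.37 in KO, with 0.64 between the closest values. Its difference of −1.0 ± 0.13 leaves 50% of the WT level and was the 8th lowest of the 27022 tested. Probe set 1437717_x_at, whose suffix marks probes that can match other sequences, had the next lowest difference. It read 7.49, 8.13 and 7.63 in WT and 7.04, 6.70 and 7.14 in KO. Here WT replicate 2 stood 0.50 above the next WT value, the groups were 0.36 apart and the difference was −0.79 ± 0.18.

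Probe set 1457673_at read 6.44, 6.91 and 6.40 in WT against 6.28, 6.26 and 6.18 in KO, close values apart from WT replicate 2. Its difference of −0.35 ± 0.14 was −0.18 without that array and −0.17 without WT replicates 1 and 2. Probe set 1440184_at was left untested because its mean fell short of the level filter, at the 8.10th percentile. It read 4.25, 3.92 and 3.86 in WT and 3.62, 3.58 and 3.42 in KO, so that the groups did not overlap there either (−0.47 ± 0.11 in the fit with no filter).

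The groups overlapped at 2 probe sets of 2610005L07Rik. At 1429041_at the values were 8.45, 8.42 and 7.89 in WT and 7.59, 7.65 and 8.08 in KO. KO replicate 3 was above WT replicate 3, and the difference of −0.48 ± 0.18 became −0.12 without WT replicates 1 and 2. At 1429882_at WT itself spanned from 5.96 (replicate 1) through 6.88 (replicate 3) to 7.48 (replicate 2), and KO lay inside that span at 6.69, 6.20 and 6.31. Its difference of −0.37 ± 0.34 was about as large as its error and was −0.02 without WT replicate 2 and −0.78 without WT replicate 1.

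The probe sets are not independent views of 2 genes. By the platform annotation 3 of the 9, namely 1429040_at of 6820431F20Rik and 1429041_at and 1452997_at of 2610005L07Rik, list the same sequence tag as their source. The 3 read at mean levels of 9.45, 8.01 and 10.90 log2 and differed between genotypes by −0.65, −0.48 and −0.46. Levels of different probe sets depend on their probes and were not ranked as amounts of RNA. The single 6820431F20Rik difference lay inside the range of those of 2610005L07Rik.

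The 2 probe sets just outside the rule name both pseudogenes and 1 more gene each, and were not assigned to any of them. Probe set 1435267_at read 8.48, 8.80 and 8.46 in WT and 7.98, 7.93 and 7.97 in KO. Probe set 1453589_a_at read 9.45, 9.83 and 9.55 in WT and 8.999, 8.96 and 9.23 in KO. Neither overlapped between groups, and their differences of −0.62 ± 0.10 and −0.55 ± 0.12 lay within the range of the 9. These values come from the same mice and may come from the same RNA, so they add no independent sample.

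The mean profile of the 9 probe sets over the arrays holds the genotype difference by which the genes were chosen. After each probe set was centred on its own mean over the 6 arrays, the mean of the 9 was 0.22, 0.47 and 0.18 log2 on WT replicates 1, 2 and 3 and −0.25, −0.41 and −0.21 on KO replicates 1, 2 and 3. WT replicate 2 was thus the highest array and KO replicate 2 the lowest by this mean. KO replicate 2 gave the lowest KO value at 6 of the 9 probe sets, while the highest WT value was on WT replicate 2 at 5 and on WT replicate 1 at 4. The median SD within genotypes was 0.19 over the 9, against 0.10 over all tested probe sets. Probe set 1429882_at had another course, at −0.63 from its own mean on WT replicate 1 and 0.10 on KO replicate 1.

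**Figure D2:**
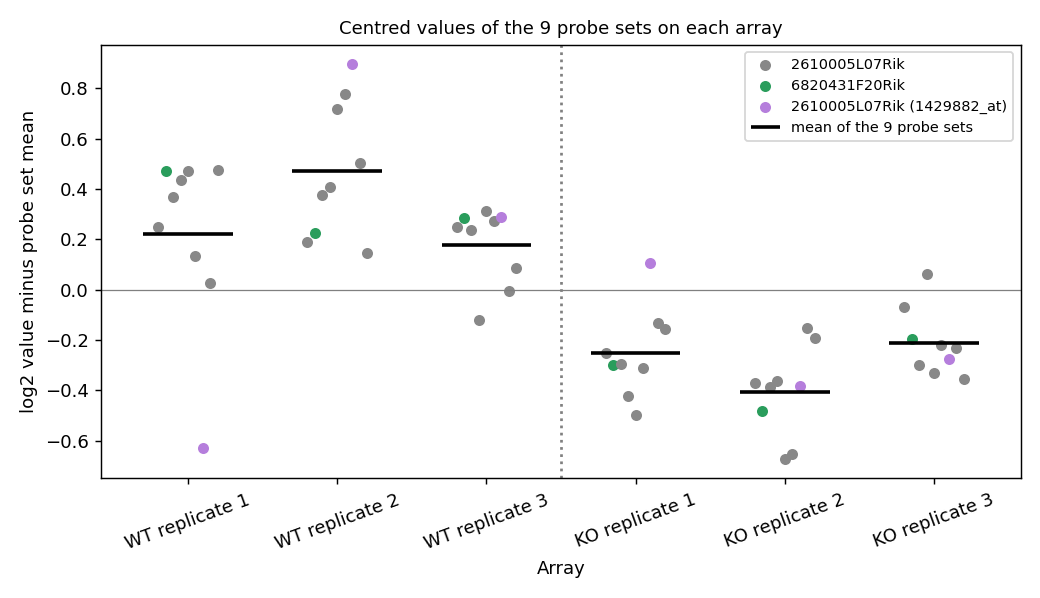
Log2 value minus the probe set's own mean over the 6 arrays, for each of the 9 probe sets (points) and their mean (bars), by array. The mean is 0.18 or higher on the 3 WT arrays and −0.21 or lower on the 3 KO arrays, and 1429882_at on WT replicate 1 stands apart at −0.63.

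WT replicate 2 also carried the highest level of the control RNAs that are spiked in before labelling (mean 8.10 log2) and WT replicate 1 the lowest (6.04), with the other 4 arrays between 6.69 and 7.06. The part of this in the pseudogene values was not tested. With both of these arrays left out, WT replicate 3 was the only WT array, and the median difference of the 9 was −0.48. Most of the 9 differences then moved toward 0, for example 1429041_at from −0.48 to −0.12 and 1436740_at from −1.0 to −0.81. Those of 1429882_at and 1452997_at moved away from 0, the first from −0.37 to −0.48. Among the cell type lists, 8 Sertoli markers had mean levels from 9.57 to 9.61 log2 on the WT arrays and of 9.53 on each KO array, without overlap. KO lay wholly below WT at 3.84% of all tested probe sets. No such share was computed for means of lists, so nothing is read from the lack of overlap. Of the 8 Sertoli markers, 6 had a lower and 2 a higher mean in KO (differences from −0.13 to 0.02), and 0 passed (limma). An unadjusted p under 0.05 (limma) was found for 1, against 5.11% of all tested probe sets. Means of the other lists overlapped between the genotypes, germ cell markers at 13.10 to 13.17 in WT and 13.15 to 13.20 in KO. Of the 12 germ cell markers 11 had a higher mean in KO, by at most 0.06, and Sycp3 had equal means of 12.27. The median difference was 0.03, and 0 passed (limma). Prm1, Prm2, Tnp1 and Tnp2 read from 14.77 to 14.98 log2, close to the highest value on the arrays. Whether a difference could show at such levels was not tested, so nothing is read from this overlap. The list for fat, a tissue that can be dissected with the testis, ran from 7.04 to 8.45 in WT and from 7.66 to 9.25 in KO over 2 genes, and that for epididymis from 6.33 to 6.48 and from 6.17 to 6.35. The part of these lists in the pseudogene values was not tested.

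Among all tested probe sets the 8 pseudogene probe sets held ranks from 8 to 201 when ordered from the lowest KO minus WT difference. Only 98 probe sets (0.363%) had a difference at or below −0.48, the median of the 9, and 5 of the 98 belonged to the 2 pseudogenes. At or below −0.35, the smallest difference of the 9 in size, were 201 probe sets (0.744%). These shares describe how far out the pseudogenes lie and carry no test.

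**Figure D3:**
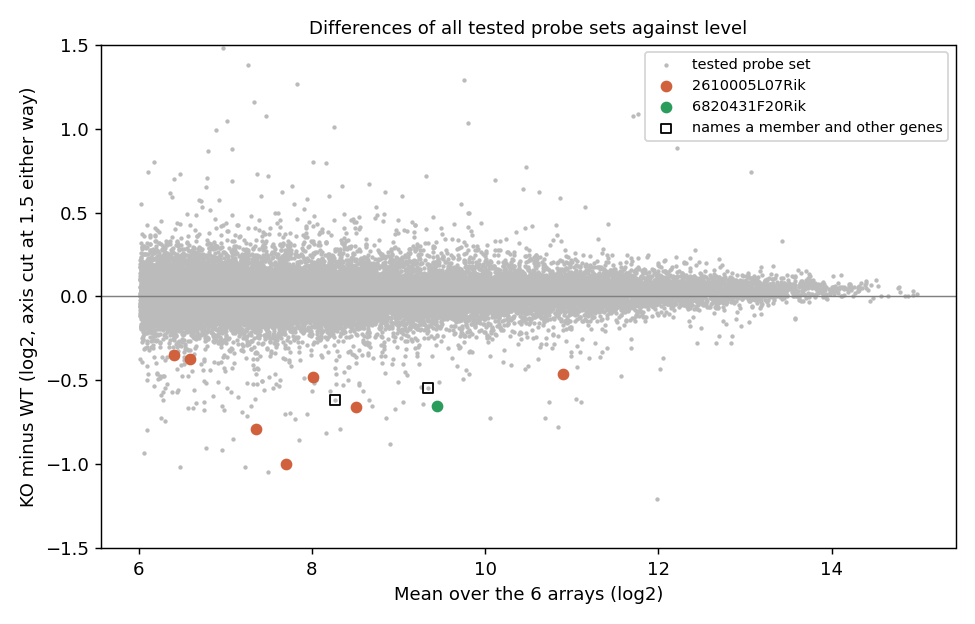
KO minus WT difference in log2 against the mean log2 value over the 6 arrays for the 27022 tested probe sets (grey), with the 8 tested probe sets of the 2 pseudogenes in colour and those naming a further gene as open squares; 8 probe sets beyond 1.5 either way are not drawn. The pseudogene probe sets lie on the lower edge of the cloud at levels from 6.41 to 10.90.

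The 2 pseudogenes lie in a stretch of chromosome 8 that is crowded with copies and thinly covered by the array. Between the defensin genes Defb7 and Defa21 the RefSeq table lists 36 genes, of which 22 are annotated as pseudogenes. Only 3 of the 36 have a probe set of their own, the 2 pseudogenes and 9530057J20Rik. In gene order 3 genes lie between 6820431F20Rik and 2610005L07Rik, namely Gm20583, Gm15319 and Gm7807, and none of these 3 is named by a probe set here. The measured context is therefore taken from genes farther away.

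None of the nearest measured genes of chromosome 8 passed the test. They were the 20 nearest tested genes on each side, taken by place alone, and each was read from the probe set of highest mean. Of these 40 genes 22 had a higher and 18 a lower mean in KO, and the median difference was 0.05 log2. The count that passed was 0 of 40 in either direction (limma, against 0.0407% of all tested probe sets), and 1 had an unadjusted p under 0.05, against 5.11%. KO lay wholly below WT at 0 of the 40, against 3.84% of all tested probe sets, and wholly above WT at 3. Of all 27022 tested probe sets the groups overlapped at 24061 and KO lay wholly below WT at 1038. At the rest KO lay wholly above WT, so nothing is read from the 3. The differences ran from −0.35 to 0.28. At 39 of the 40 they were above the −0.35 of 1457673_at, the pseudogene probe set nearest to 0. Only 0.744% of all tested probe sets lay at or below that value, so nothing is read from this count.

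Nearest on one side was 9530057J20Rik, a protein-coding gene read at a high level. Its probe set gave 12.46 ± 0.08 log2 in WT and 12.55 ± 0.10 in KO (SD, n = 3 each), a difference of 0.09 ± 0.07 (SE, limma adjusted p = 0.993). Nearest on the other side was Defa31, an alpha-defensin gene, at 6.84 ± 0.16 and 6.82 ± 0.09 (−0.01 ± 0.10, limma adjusted p = 0.999). Alpha-defensins are antimicrobial peptides best known from the small intestine. Both differences were no larger than about the SD between mice.

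The neighbours with the smallest p were Tpte, which encodes a testis phosphatase with a transmembrane part (0.23 ± 0.08, limma adjusted p = 0.863), and Defb15 and Defa39, both defensin genes (−0.21 ± 0.11 and 0.28 ± 0.14). They were followed by AF366264 at 0.21 ± 0.12, by Agpat5, an acyltransferase gene of phospholipid synthesis, at −0.14 ± 0.08, and by Thsd1 at 0.14 ± 0.09. The adjusted p of the last 5 was 0.993. Their directions were mixed, with 4 of these 6 higher in KO and 2 lower.

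**Figure D4:**
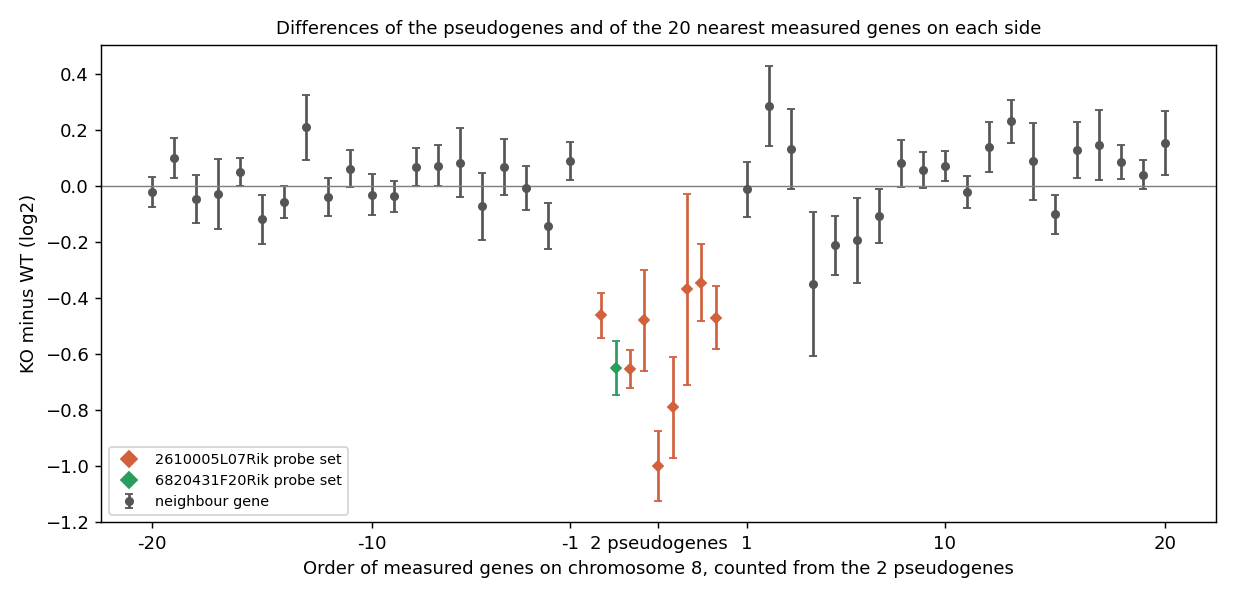
KO minus WT difference in log2 (points, with SE as bars) of the 9 pseudogene probe sets in the centre and of the 20 nearest tested genes on each side, in gene order along chromosome 8; the pseudogene probe sets are spread by mean level, not by place. The neighbours lie between −0.35 and 0.28, and the pseudogenes, which were chosen by this difference, between −1.0 and −0.35.

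The defensins of chromosome 8 form the multicopy cluster around this stretch. Of 64 listed, 17 had a probe set of their own and 5 were tested, all of them among the neighbours above. None of the 5 passed (limma, 0 at an unadjusted p under 0.05), and 2 were higher and 3 lower, with a median of −0.01. The lowest, Defb11, read 8.28 ± 0.05 in WT and 7.93 ± 0.60 in KO, so that its difference of −0.35 ± 0.26 was smaller than the spread between KO mice.

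As a list from outside the stretch, cadherin and catenin genes, many of which encode proteins of adherens junctions, were set beside the pseudogenes. The list was taken in case the annotation tied the pseudogenes to a cadherin. No link between the list and the pseudogenes is stated in the labels or the annotation used. Of 31 genes 20 were tested and none passed in either direction (limma, 0 at an unadjusted p under 0.05), with 9 higher, 11 lower and a median of −0.01. Cdh26 had the smallest p (−0.26 ± 0.12, limma adjusted p = 0.984), followed by Cdh13 (−0.16 ± 0.10), Ctnna2 (0.10 ± 0.08) and Cdh23 (0.17 ± 0.14), each at 0.993. Cdh2, the N-cadherin of Sertoli and germ cell contacts, stood at −0.01 ± 0.14 and Cdh11 at 0.16 ± 0.20, while Cdh1 read 4.27 in WT and 4.31 in KO, under the level filter.

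Other transcribed pseudogenes had differences on either side of 0. Of 70 tested, 37 had a lower mean in KO, the median difference was −0.01 and the range ran from −0.33 (Ppp1r2-ps7) to 0.50. None of the 70 passed (limma). An unadjusted p under 0.05 was found for 4 (5.71%, against 5.11% of all tested probe sets), and KO lay wholly below WT at 4 (5.71%, against 3.84%). Of 803 other clone-named genes, each read from its probe set of highest mean, 330 had a lower mean in KO, the median was 0.03 and the range ran from −0.66 to 3.89. Of these 3 passed (0.374%, against 0.0407% of all tested probe sets) and 77 had an unadjusted p under 0.05 (9.59%, against 5.11%). KO lay wholly below WT at 33 (4.11%).

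The 8 genes whose values over the 6 arrays came closest to the pseudogenes were listed. Likeness was measured as the root mean square difference, in log2 units, between a probe set's centred values and the mean profile of the 8 tested pseudogene probe sets, which includes the genotype contrast. The list rests on that contrast, since 0 of its 8 genes were shared when values were centred within each genotype. The 2 probe sets that name both pseudogenes and another gene were closest of all those named here, at 0.06 each. The pseudogene probe sets themselves lay between 0.10 (1440387_at) and 0.40 (1429882_at) from their mean. Bik, a promoter of apoptosis on chromosome 15, came next at 0.08 with its probe set 1420362_a_at, which read 7.67 ± 0.12 in WT and 7.17 ± 0.12 in KO, although its 2 other tested probe sets differed by only −0.18 and −0.20.

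After Bik came 1700063H04Rik on chromosome 6 (0.09), the gasdermin gene Gsdma on chromosome 11 (0.10), Lgals3, which encodes galectin-3, on chromosome 14 (0.11) and Nid2, a basement membrane gene, also on chromosome 14 (0.11). Prok2, Pde6h and Rassf4 followed at 0.11 to 0.12, all 3 on chromosome 6. Prokineticin 2, encoded by Prok2, is a secreted signalling protein, and Pde6h encodes a phosphodiesterase subunit of cone photoreceptors. The 2 other tested probe sets of Prok2 differed by 0.02 and −0.02 and the other one of Pde6h by −0.36. Their KO minus WT differences, from −0.70 to −0.41, follow from the way the 8 were picked. None of the 8 lies on chromosome 8. The share of all tested genes on that chromosome was not computed, so nothing is read from this.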

How the data were processed

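The deposited table holds log2 values of 45101 probe sets on 6 arrays, from 2.61 to 15.00, a scale read from the values. Per the labels' protocols, Trizol RNA (RIN 9.8 to 10) was labelled with biotin in 1 cycle. The submitters' processing notes name GCOS 1.4. How the authors corrected background, summarised probes and normalized is not given in the sources used.

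Groups follow the titles. Leaving out 64 control probe sets, the upper 60% by mean log2 were kept (27022, lowest mean 6.02). KO was compared with WT by limma 3.58.1 in R 4.3.3 (lmFit, eBayes with an intensity trend, two-sided, Benjamini-Hochberg over the kept probe sets, threshold 0.05), a pipeline also tested on simulated data. Names came from the platform annotation and, through gene ids, from RefSeq GRCm38.p6 (99.4% matched), which was used for names, biotypes and gene order only. Of the probe sets 34945 name 1 gene, 932 several and 9160 none.

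Members and lists were chosen with earlier results of these data known. Named neighbours were the nearest gene on each side and the 6 with the smallest p. Named cadherins and catenins were the 4 with the smallest p plus Cdh11, Cdh1 and Cdh2. Defensins would be named if they passed, otherwise the 2 with the smallest p, and Defb11 was named after its values were seen. The 8 genes closest in pattern were named. The classes of pseudogenes and clone-named genes were added after the data were seen. Alternatives covered the level filter, quantile normalization, moderation, a replicate block, the number of neighbours and leaving out arrays. Figures were drawn with matplotlib 3.10.9.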

Additional observations from a re-analysis of the deposited data

How the results depend on the processing

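The median difference of the 9 pseudogene probe sets kept its sign under all 13 alternatives (−0.66 to −0.48). The level filter, intensity trend, moderation and replicate block cannot alter a difference between group means. Only quantile normalization and leaving out arrays could move it. Leaving out 1 array gave −0.66 to −0.49, with the largest values without WT replicate 3 (−0.66) and KO replicate 3 (−0.63). All 9 single differences also stayed below 0. The count of 1 call among them was 0 with a replicate block, without any 1 array and without WT replicates 1 and 2, and 1 under the other 5 alternatives. Over all probe sets the count of 11 calls became 7 with the upper 40% by level and 2 without WT replicates 1 and 2, and ran from 2 to 12 when 1 array was left out: it was 4 when WT replicate 3 was dropped, 6 when KO replicate 1 was dropped and 2 when KO replicate 3 was dropped. With the replicate block it was 9. Across probe sets, deviations from the group means correlated by 0.22, −0.02 and 0.10 for equal replicate numbers. For unequal numbers the correlations ran from −0.28 to 0.25. Deviations within a group of 3 sum to 0, so these values cannot decide whether the mice were paired. The block changed no call of the lists. Neighbours, defensins, cadherins and catenins had 0 calls under every alternative run, with 10 or 40 neighbours on each side too. Only 2 to 14 of all probe sets were called under the alternatives. Lists this short would thus hardly hold a call under any of them, and nothing is read from the 0. Of the 8 genes closest in pattern 0 were shared when values were centred within each genotype. The causes were not tested. How far signals stood above background is unknown without detection calls.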
